A study of Mus musculus with 29 samples.

Results

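The genes described here encode the receptors and the killing machinery of natural killer (NK) cells. The 10 genes are Ncr1, Klrb1c, Klrd1, Klre1 and Klrk1 (receptors), Gzma, Gzmb, Prf1 and Nkg7 (cytotoxic granules) and Eomes (a transcription factor). They were chosen by symbol, and all 10 were found among the 25746 genes counted in cortex RNA of mice after photothrombotic stroke. The 29 samples formed 8 groups, and in the stroked groups the tissue was taken 21 days after a stroke of the right sensorimotor cortex of mice 3 months old, of both sexes. The wild-type mice (WT, C57BL/6) were non-stroked (n = 4), stroked without drug (n = 4), or stroked and given tacrolimus, a calcineurin inhibitor that restrains T cell activation, by osmotic pump from the day of stroke (WT-Tacr acute, n = 3) or from day 7 (WT-Tacr delayed, n = 5). Rag2-/- mice, which lack mature T and B cells and keep NK cells, were non-stroked (n = 3) or stroked (n = 3). NSG mice, of NOD background with defects in Prkdc and Il2rg, lack T, B and NK cells and keep myeloid cells, and they were non-stroked (n = 4) or stroked (n = 3). Whether the non-stroked tissue came from intact mice or from the uninjured side of stroked mice is described in both ways in the study, and no non-stroked sample with tacrolimus was used here. The same 4 non-stroked WT samples thus serve as controls for 3 comparisons. The sample titles carry a cohort prefix, Imm2 (20 samples) or TF (9 samples). All non-stroked samples were in Imm2 and all WT-Tacr delayed samples in TF, so these groups share no cohort. A cohort term between them rests on stroked WT and WT-Tacr acute, which had samples in both cohorts. The comparisons ask how missing or restrained lymphocytes change the response to stroke, here for the NK genes. Nothing in the labels says whether each sample came from 1 mouse. The study's methods give fewer mice for sequencing than there are NSG or tacrolimus samples here, so some samples may share a mouse, which the tests do not take into account, and p-values measure only the spread between these samples.

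NK cells are innate lymphocytes that kill infected, stressed or transformed cells without prior sensitisation. They weigh activating signals against inhibitory ones, and once the balance tips they release granules that hold perforin, which opens the target membrane, and granzymes, the proteases that enter and start cell death. After stroke they are among the lymphocytes that enter the injured brain. Klrb1c (the NK1.1 antigen) and Ncr1 (NKp46) are activating receptors and standard NK markers. Klrk1 (NKG2D) is an activating receptor for stress-induced ligands, Klrd1 (CD94) pairs with NKG2 proteins to read the non-classical class I molecule encoded by H2-T23, and Klre1 is a lectin-like receptor of the same gene complex. Gzma and Gzmb encode granzymes, Prf1 encodes perforin, Nkg7 encodes a granule membrane protein, and Eomes drives NK cell maturation. Cytotoxic T cells also make the granule genes, Klrd1, Klrk1 and Eomes, so these genes alone do not tell the cell types apart.

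In the GENCODE M21 annotation of GRCm38 (the build used for the counts is not given in the sources used here), 4 of the receptor genes lie in the NK gene complex of chromosome 6. Klrb1c is at chr6:128778485-128789215 on the minus strand, Klre1 at chr6:129577905-129585827 on the plus strand, Klrd1 at chr6:129591782-129598775 on the plus strand and Klrk1 at chr6:129610323-129623864 on the minus strand. The others are spread over the genome, with Ncr1 at chr7:4337724-4345164 (plus), Nkg7 at chr7:43437073-43438249 (plus), Gzma at chr13:113093825-113100981 (minus), Gzmb at chr14:56258838-56262260 (minus), Prf1 at chr10:61297833-61304680 (plus) and Eomes at chr9:118478212-118486132 (plus). Klrb1c overlaps the same-strand gene Gm44511, which held 96 counts over all samples and at most 13 in a sample. Klrb1c, Klrd1, Klre1 and Klrk1 belong to lectin-like receptor families with close relatives in the same complex, and reads shared between relatives could be split by the counting.

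RefSeq (GRCm38.p6) gave a promoter for 9 of the 10 genes. The 250 bases before each start were searched on both strands for 3 short motifs of factors that act in cytotoxic lymphocytes, the T-box motif GTGTGA (Eomes and T-bet), the RUNX motif TGTGGT and the ETS motif AGGAAG. The RUNX letters were present in 8 of the 9 genes, all but Eomes, and in 14% of 32851 promoters of the same length. The T-box letters were present in 4 of the 9 (Gzmb, Klre1, Ncr1 and Nkg7) and in 12.3% of promoters, and the ETS letters in 4 of the 9 (Klrb1c, Klre1, Nkg7 and Prf1) and in 29.5%. Klre1 and Ncr1 had more than a single promoter and were counted if any of them matched, while the shares are per promoter. The T-box and RUNX motifs share the letters TGTG, and a match is a description of letters, not a binding site. The 3 promoters below belong to the genes that were higher in WT-Tacr delayed than in WT-Tacr acute mice in the comparison described further on, and each is written 5′ to 3′ on the strand of its gene with matches to any of the 3 motifs in capitals. Klrb1c is shown at chr6:128788642-128788891 (minus), Klrk1 at chr6:129623865-129624114 (minus) and Nkg7 at chr7:43436888-43437137 (plus).
Klrb1c: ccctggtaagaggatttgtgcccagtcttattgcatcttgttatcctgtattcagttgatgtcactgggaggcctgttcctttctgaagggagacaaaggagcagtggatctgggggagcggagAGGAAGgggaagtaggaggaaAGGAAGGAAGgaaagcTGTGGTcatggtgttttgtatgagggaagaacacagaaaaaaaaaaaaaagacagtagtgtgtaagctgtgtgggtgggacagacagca
Klrk1: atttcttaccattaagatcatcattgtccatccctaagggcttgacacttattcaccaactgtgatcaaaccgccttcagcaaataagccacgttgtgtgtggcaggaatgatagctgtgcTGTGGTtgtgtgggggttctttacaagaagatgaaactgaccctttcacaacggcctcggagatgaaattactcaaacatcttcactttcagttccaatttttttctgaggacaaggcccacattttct
Nkg7: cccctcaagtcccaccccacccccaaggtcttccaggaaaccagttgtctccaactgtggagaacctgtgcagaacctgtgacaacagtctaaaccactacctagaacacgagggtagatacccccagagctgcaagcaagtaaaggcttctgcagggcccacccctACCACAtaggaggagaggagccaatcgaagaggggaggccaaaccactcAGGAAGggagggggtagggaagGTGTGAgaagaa
Klrb1c held ETS and RUNX letters, Klrk1 held RUNX letters alone, and Nkg7 held all 3.

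The counts behind these genes were small, and this sets what the data can show. The libraries held between 17789044 and 43403413 counts, and the median library of Imm2 (37223696 counts) was deeper than that of TF (23155303 counts). A level of 3 counts, taken as the detection limit of a library, corresponded to 0.0730 to 0.149 CPM (counts scaled to a common library size). Over all 29 samples together, Ncr1 had 29 counts, Prf1 had 34, Gzmb had 40, Klre1 had 41 and Gzma had 49. The better covered genes were Nkg7 with 95 counts, Klrd1 with 108, Klrb1c with 129 and Klrk1 with 130. Eomes stood apart with 2167 counts, 76.8% of all counts of the 10 genes. Samples with more than 3 counts numbered 2 for Ncr1 and Prf1, 3 for Gzmb, 4 for Klre1, 5 for Gzma, 11 for Klrb1c and Nkg7, 12 for Klrd1 and Klrk1, and 27 for Eomes. Klrb1c, Klrd1, Klrk1, Nkg7 and Eomes passed the filter on low counts, along with 17031 genes in all, and were tested in a single edgeR quasi-likelihood fit of the 8 groups. A gene was called when its Benjamini-Hochberg adjusted p was below 0.05 and its change exceeded 1 on the log2 scale. The other 5 genes are given by their counts, and by a fit without the filter where it bears on them. In bulk tissue, fewer cells of a type and less RNA per cell cannot be told apart.

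**Figure D1:**
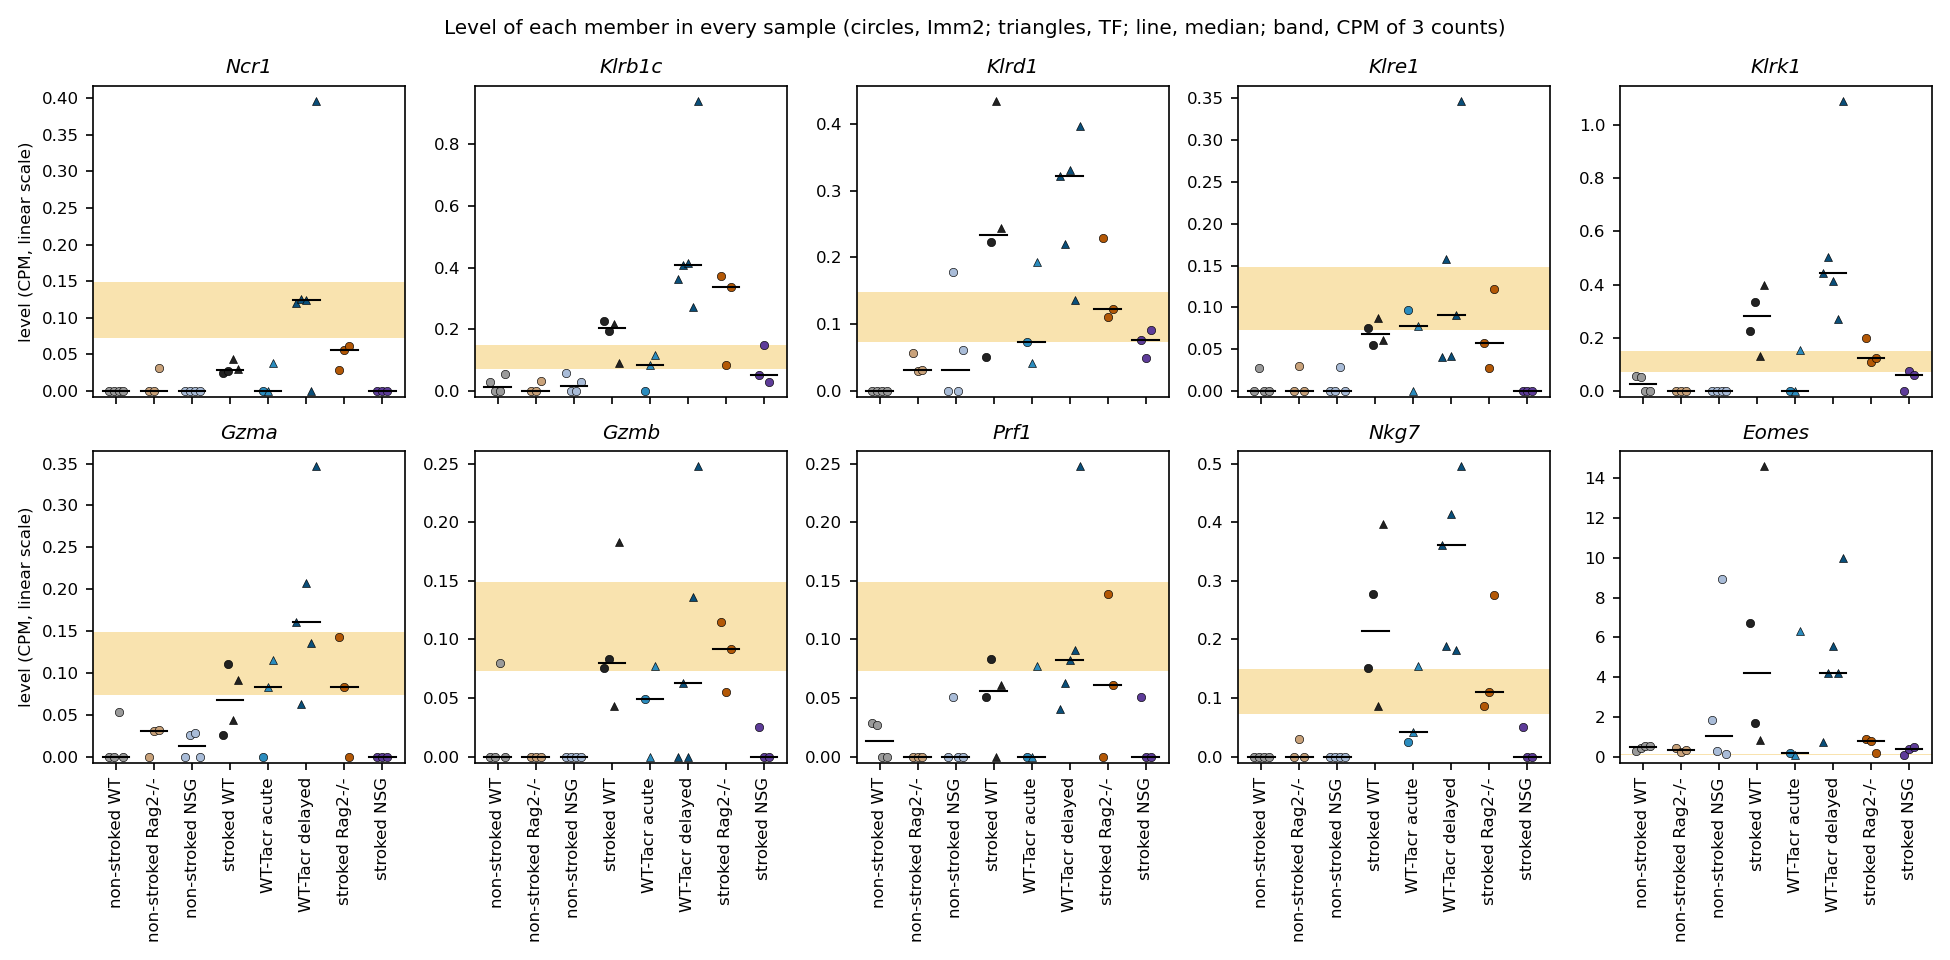
Level of each of the 10 genes (CPM, linear axis, a scale of its own for each gene) in every sample of the 8 groups, with circles for the Imm2 cohort, triangles for the TF cohort, a line at each group's median and a band at the level of 3 counts (0.0730 to 0.149 CPM). Non-stroked samples sit within or under the band for all genes other than Eomes, apart from Klrd1 at 0.178 CPM in 1 non-stroked NSG sample, and the delayed tacrolimus group reaches 0.942 CPM for Klrb1c and 1.09 CPM for Klrk1.

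To set genes beside each other, pooled group counts were divided by exon length (pooled CPM per kb, with exact Poisson 95% intervals that cover counting error only). In stroked WT mice Eomes was highest at 1.51 per kb (1.41 to 1.62), followed by Nkg7 at 0.258 (0.175 to 0.367) and Klrd1 at 0.166 (0.111 to 0.241). Gzmb, Gzma and Klrb1c came next at 0.0689, 0.0681 and 0.0617 per kb with overlapping intervals, then Klrk1 at 0.0392. Prf1, Ncr1 and Klre1 were lowest at 0.0206, 0.0198 and 0.0196 per kb, also with overlapping intervals. In the WT-Tacr delayed group Eomes was at 1.14, Nkg7 at 0.347 and Klrd1 at 0.216 per kb, and Gzma was at 0.170 (0.105 to 0.259) and Gzmb at 0.0566 (0.0271 to 0.104), or 0.135 and 0.0338 without replicate 5. Neighbours in this order whose intervals overlap were not told apart. The order also depends on the length used, which joins all annotated exons of a gene and can exceed that of the transcript present. It was 7183 bases for Klrk1 and 1281 for Klrd1. Before division Klrk1 had the most counts after Eomes in stroked WT, 37 in all. These pooled values rest on unequal samples. The pooled Eomes level of stroked WT was 0.842 per kb without replicate 4. In stroked WT replicate 3 Eomes, at 0.199 per kb, was below Klrd1 at 0.339, and in WT-Tacr delayed replicate 1 Eomes, at 0.174 per kb, was below both Klrd1 at 0.251 and Nkg7 at 0.396.

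In non-stroked cortex the receptors and granule genes were at or below the detection limit in all 3 strains, apart from Klrd1 in 1 NSG sample. Summed over the 9 genes without Eomes, non-stroked WT samples held 2 to 5 counts, from 0.0550 to 0.133 CPM with a median of 0.111. Non-stroked Rag2-/- samples held 2 to 4 counts (0.0566 to 0.127 CPM), and non-stroked NSG samples 2 to 10 counts (0.0567 to 0.254 CPM). The pooled levels were 0.103 CPM in WT (0.0575 to 0.169), 0.100 CPM in Rag2-/- (0.0481 to 0.184) and 0.120 CPM in NSG (0.0701 to 0.193), so a difference between strains was not detectable at this depth. Ncr1, Klrd1 and Nkg7 had 0 counts in all 4 non-stroked WT libraries, which allows up to 3 counts per library, or 0.0795 to 0.0854 CPM. Klrd1 was the only one of the 9 above 3 counts in any non-stroked library, with 0, 7, 0 and 2 counts in the NSG samples. Of 17031 genes, 0.00587% were called between non-stroked Rag2-/- and WT, 3.36% between NSG and WT and 2.8% between NSG and Rag2-/-. None of the 5 tested genes was called in any of the 3 comparisons by edgeR. At an unadjusted p under 0.05 the counts were 1, 2 and 1, beside 2.05%, 22.9% and 18.2% of all genes, and DESeq2 called 0, 1 (Klrd1) and 0.

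In WT mice 21 days after stroke, the receptors Klrb1c, Klrd1 and Klrk1, the granule gene Nkg7 and Eomes were called higher than in non-stroked WT, where 7.3% of all genes tested were called. These genes passed the filter mainly through groups in which they were high, so that their number among the tested genes supports nothing, and without the filter they were 5 of the 10, with 5.72% of all genes called. Klrb1c rose from 1, 0, 0 and 2 counts in non-stroked to 9, 7, 5 and 3 counts in stroked samples, or 0.227, 0.194, 0.217 and 0.0916 CPM in the latter. The ratio of pooled levels was 8.89 (95% counting interval 2.70 to 46.1), with an adjusted p of 0.0149 by edgeR. The lowest stroked sample was above the highest non-stroked one, and the call was lost with cohort as a covariate (adjusted p = 0.0512), as was that of Eomes (0.106). Klrk1, the NKG2D receptor, rose from 2, 2, 0 and 0 counts to 9, 12, 3 and 13, from at most 0.0569 CPM to 0.227, 0.333, 0.130 and 0.397 CPM. Its log2 fold change was 3.17 ± 0.84 (SE), with an adjusted p of 0.00901 by edgeR, and the groups did not overlap, as for 23.5% of the 22092 genes with a count. Klrd1 rose from 0 counts in every non-stroked library to 2, 8, 10 and 8 counts, or 0.0505, 0.222, 0.435 and 0.244 CPM. This was at least 2.89-fold higher than the level of 3 counts per library, with an adjusted p of 0.000920 by edgeR.

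Among the granule genes of stroked WT mice, Nkg7 carried the clearest change. It had 0 counts in every non-stroked library and 6, 10, 2 and 13 counts in stroked ones, or 0.151, 0.278, 0.0869 and 0.397 CPM. The group was at least 2.78-fold higher than the level of 3 counts per library (edgeR adjusted p = 0.000827). The granzymes and perforin stayed close to the limit. Gzmb had 0, 0, 3 and 0 counts in non-stroked and 3, 3, 1 and 6 counts in stroked samples, a pooled ratio of 4.82 (1.32 to 26.4). Gzma had 0, 0, 2 and 0 counts against 1, 4, 1 and 3, a pooled ratio of 5.001 (1.035 to 47.6), and both granzymes overlapped between the groups. These intervals cover counting error and leave out the spread between samples. Prf1, with 1, 1, 0 and 0 against 2, 3, 0 and 2 counts, never exceeded 3 counts. Ncr1 (0 counts in every non-stroked library and 1 in every stroked one) and Klre1 (0, 1, 0 and 0 against 3, 2, 2 and 2) stayed at or under 3 counts too, and no fold is given for them. Eomes rose from 0.285, 0.435, 0.504 and 0.550 CPM to 6.72, 1.67, 0.826 and 14.6 CPM, a log2 fold change of 3.74 ± 1.14 (SE; edgeR adjusted p = 0.0173). The stroked samples were all above the non-stroked ones and differed widely among themselves. The Eomes call rested on single libraries, with an adjusted p of 0.0526 without non-stroked WT replicate 1 and 0.0925 without stroked WT replicate 4. Among Imm2 samples alone, where 4 of the 10 genes could be tested, the adjusted p was 0.0469 for Klrb1c, 0.0358 for Klrk1, 0.0139 for Nkg7 and 0.0556 for Eomes.

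With tacrolimus from the day of stroke, 1 member was called, and replicate 3 stood apart from replicates 1 and 2. For replicates 1 and 2 1 number in the sample title differs from that in the name of the count table, with the same cohort in both, and the group was taken from the labels. What follows for WT-Tacr acute rests on that assignment. Klrd1 was the only one of the 5 tested genes called against non-stroked WT, where 2.58% of all genes were called. It had 3, 1 and 5 counts (0.0730, 0.0416 and 0.193 CPM) against 0 in all controls, at least 1.25-fold higher than the level of 3 counts per library (edgeR adjusted p = 0.0367). That level was 0.0795 to 0.0854 CPM in the controls. Replicates 1 and 2 were under it, so the bound rests on replicate 3. The call was lost without acute replicate 3 (adjusted p = 0.262) and without any 1 of the 4 non-stroked WT samples (0.0658 to 0.0824). Nkg7 had 1, 1 and 4 counts and did not overlap the controls at 0, as for 16% of the genes with a count, with an adjusted p of 0.0663 by edgeR. Klrb1c had 0, 2 and 3 counts and Klrk1 had 0, 0 and 4, with edgeR adjusted p-values of 0.466 and 0.757. Gzma had 0, 2 and 3 counts, Gzmb 2, 0 and 2, Prf1 0, 0 and 2, and Ncr1 0, 0 and 1. Klre1 had 4, 0 and 2 counts, a pooled ratio of 9.63 (1.17 to 443) to the single count of the controls. Eomes was 0.195, 0.0832 and 6.30 CPM, with replicate 3 far above the other samples, and its adjusted p was 0.220 by edgeR. Replicate 3 also had the highest level of the group for 8 of the other 9 genes, all but Klre1.

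With tacrolimus from day 7, Klrb1c, Klrd1, Klrk1, Nkg7 and Eomes were called higher than in non-stroked WT, where 15.5% of all genes tested were called. The samples of these groups came from different cohorts. For 8 of the 10 genes, all but Ncr1 and Gzmb, the samples of the groups did not overlap, as was the case for 42.8% of the 22092 genes with a count. Klrb1c reached 9, 13, 10, 6 and 19 counts, or 0.362, 0.409, 0.414, 0.272 and 0.942 CPM, a pooled ratio of 22.5 (7.34 to 113; edgeR adjusted p = 6.55e-05). Klrk1 reached 11, 16, 10, 6 and 22 counts, or 0.442, 0.504, 0.414, 0.272 and 1.09 CPM, and its log2 fold change was 4.11 ± 0.78 (SE; edgeR adjusted p = 0.000191). Replicate 5 was the highest sample for both receptors. Klrd1 had 8, 7, 8, 3 and 8 counts, at least 3.42-fold above the level of 3 counts per library (edgeR adjusted p = 9.65e-05). Nkg7 had 9, 6, 10, 4 and 10 counts, at least 3.99-fold above it (edgeR adjusted p = 6.55e-05). Eomes was 0.724, 4.19, 5.59, 4.21 and 10.02 CPM, a log2 fold change of 3.46 ± 1.11 (SE; edgeR adjusted p = 0.0109), and this call was lost with cohort as a covariate (adjusted p = 0.527) while the other 4 held.

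Of the genes below the filter, Ncr1, Klre1, Gzma and Prf1 had their highest pooled level in the delayed group, and Gzmb did not. Ncr1 had 3, 4, 3, 0 and 8 counts, at least 1.87-fold above the level of 3 counts per library. This bound is lower without replicate 5, where the pooled level was 0.0631 CPM per kb in place of 0.0950. The adjusted p of Ncr1 was 0.00105 by edgeR without the filter. Klre1 had 1, 5, 1, 2 and 7 counts, a pooled ratio of 19.0 (2.95 to 796) to non-stroked WT (0.00341 by the same fit). Gzma had 4, 2, 5, 3 and 7 counts, a pooled ratio of 12.5 (3.05 to 110; 0.00560). These 3 genes passed the call rule there and under DESeq2, which takes the count of called genes to 8 of 10, in fits that called 13.6% and 15.1% of all genes. Prf1 had 1, 2, 2, 2 and 5 counts, a pooled ratio of 7.12 (1.59 to 65.5), with an adjusted p of 0.0546 by edgeR without the filter. Gzmb had 0, 2, 0, 3 and 5 counts, a pooled ratio of 3.96 (1.02 to 22.4), and overlapped the controls. This ratio is lower without replicate 5, where the pooled delayed level was 0.0338 CPM per kb in place of 0.0566.

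The start of tacrolimus could be compared directly between the treated groups. Klrb1c, Klrk1 and Nkg7 were called higher in WT-Tacr delayed than in WT-Tacr acute, where 5.75% of all genes were called. Their samples did not overlap, as for 14.3% of the 22092 genes with a count. The log2 fold change was 2.96 ± 0.77 (SE) for Klrb1c, with an adjusted p of 0.0131 by edgeR. It was 3.46 ± 0.84 for Klrk1 (0.0123) and 2.19 ± 0.74 for Nkg7 (0.0421). The promoters of these 3 genes are the ones printed above. Klrd1 differed by 1.44 ± 0.71 (0.152) and Eomes by 1.19 ± 1.07 (0.441) on the log2 scale, short of the threshold by edgeR. Ncr1, with 18 pooled counts against 1, had a ratio of 13.3 (2.10 to 555) and an adjusted p of 0.0466 by edgeR without the filter, a fit in which Nkg7 missed the threshold (0.0574). Nkg7 also missed it with cohort as a covariate (0.0966). The Ncr1 ratio is lower without delayed replicate 5, where the pooled delayed level was 0.0631 CPM per kb in place of 0.0950. Prf1 had a ratio of 4.44 (0.988 to 40.8). The calls depended on the acute samples: without acute replicate 1 the adjusted p-values of the 3 genes were 0.110 to 0.243, without replicate 2 they were 0.0955 to 0.152, and no gene at all was called in either case. Without acute replicate 3, Eomes joined the 3 genes. Within the TF cohort alone, with 5 against 2 samples and 0 of all genes called by edgeR, the log2 fold changes were 2.21 for Klrb1c, 2.70 for Klrk1 and 1.67 for Nkg7, with adjusted p-values of 0.159, 0.159 and 0.211.

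Neither tacrolimus group was separated from untreated stroked WT by the call rule. In both comparisons 0 of 17031 genes were called by edgeR, which is 0% of genes, and 0 of the 10 members by DESeq2. At an unadjusted p under 0.05 the members numbered 2 for the acute and 1 for the delayed group, beside 12.7% and 20.3% of all genes. For WT-Tacr acute against stroked WT the log2 fold change was -2.51 ± 0.90 for Klrk1 (SE; edgeR adjusted p = 0.311) and -1.73 ± 0.77 for Nkg7 (0.358). Klrk1 levels of 0, 0 and 0.155 CPM stood against 0.130 to 0.397 CPM, so that only acute replicate 3 overlapped the stroked WT samples. Without acute replicate 3, Klrk1 and Eomes were called lower and 3.99% of all genes were called. For WT-Tacr delayed against stroked WT, Klrb1c was the only 1 of the 10 genes whose samples did not overlap, as for 3.46% of the 22092 genes with a count. Its 5 delayed samples were above the 4 stroked WT samples, with a log2 fold change of 1.36 and a 95% interval of 0.21 to 2.51 (edgeR adjusted p = 0.196). The intervals for Klrd1 (-0.87 to 1.49), Klrk1 (-0.22 to 2.11), Nkg7 (-0.66 to 1.59) and Eomes (-2.15 to 1.58) each spanned 0.

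Stroke in Rag2-/- mice, which have no mature T or B cells, was followed by higher levels of the receptors Klrb1c and Klrk1. They were 2 of the 10 members, where 4.33% of all genes tested were called. Klrb1c rose from 0, 0 and 1 counts to 13, 3 and 11, or 0.373, 0.0831 and 0.337 CPM, a pooled ratio of 26.0 (4.28 to 1064; edgeR adjusted p = 0.0144). Klrk1 rose from 0 counts in every library to 7, 4 and 4, or 0.201, 0.111 and 0.123 CPM, at least 1.60-fold above the level of 3 counts per library (edgeR adjusted p = 0.0428). For both genes the groups did not overlap, as for 28.7% of the 22092 genes with a count. Nkg7 had 0, 1 and 0 counts without stroke and 3, 4 and 9 after it, a pooled ratio of 15.4 (2.39 to 646), with an adjusted p of 0.0580 by edgeR. Klrd1 went from 2, 1 and 1 counts to 8, 4 and 4, a log2 fold change of 1.85 ± 0.92 (SE; edgeR adjusted p = 0.246), and did not overlap. Gzmb, at 0 in the controls, had 4, 2 and 3 counts. Gzma had 5, 3 and 0 counts against 0, 1 and 1, Prf1 had 0, 5 and 2 against 0, Klre1 had 2, 1 and 4 against 0, 1 and 0, and Ncr1 had 1, 2 and 2 against 0, 0 and 1. Eomes was at 0.889, 0.776 and 0.153 CPM after stroke and 0.425, 0.243 and 0.349 CPM without, a log2 difference of 0.84 ± 1.46 (SE; edgeR adjusted p = 0.805), with overlapping groups. With 3 samples per group the calls were fragile, since leaving out any 1 sample took the Klrk1 adjusted p to 0.0537 to 0.156, and Klrb1c was lost without non-stroked replicate 1, non-stroked replicate 2 or stroked replicate 1 (0.0755 to 0.0812).

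In NSG mice, which lack NK cells by genotype, the pooled counts of the 9 genes without Eomes were 27 in 3 libraries after stroke and 17 in 4 without. The pooled levels were 0.240 CPM (0.158 to 0.349) and 0.120 CPM (0.0701 to 0.193), with overlapping intervals that cover counting error only. Overlap of separate intervals does not show equal levels, and the difference between these sums was not tested. None of the 5 tested genes was called between stroked and non-stroked NSG by edgeR, against 5.48% of all genes. At an unadjusted p under 0.05 there were 2, beside 35.9% of all genes, and DESeq2 called 1 (Eomes). Ncr1, Klre1 and Gzma had 0 counts in all 3 stroked NSG libraries, which allows up to 0.0741 to 0.0918 CPM. Gzmb had 1, 0 and 0 counts, Prf1 2, 0 and 0, Nkg7 2, 0 and 0, and Klrk1 0, 3 and 2. Klrb1c had the most counts of the receptors with 2, 6 and 1, a pooled ratio of 3.76 (0.938 to 21.6) to non-stroked NSG (edgeR adjusted p = 0.231). Klrd1 had 3, 2 and 3 counts, a log2 fold change of 0.17 ± 0.87 (SE; edgeR adjusted p = 0.905). Eomes was 0.0759, 0.371 and 0.490 CPM after stroke and 1.81, 0.279, 8.93 and 0.124 CPM without, a log2 difference of -3.17 ± 1.32 (SE; edgeR adjusted p = 0.0833).

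Between stroked groups, NSG mice had lower Nkg7 and Eomes than WT mice, 2 of the 10 members, where 3.26% of all genes tested were called. For Nkg7 the pooled ratio was 0.0752 (0.00872 to 0.296; edgeR adjusted p = 0.0165), and for Eomes the log2 fold change was -4.27 ± 1.34 (SE; edgeR adjusted p = 0.0355). Klrk1 was lower by a log2 fold change of -2.54 ± 0.85 (SE; edgeR adjusted p = 0.0528), and Gzmb had a pooled ratio of 0.0897 (0.00211 to 0.597). For 7 of the 10 genes (Ncr1, Klre1, Klrk1, Gzma, Gzmb, Nkg7 and Eomes) no stroked NSG sample reached the lowest stroked WT sample, and the groups did not overlap for 11.6% of the 22092 genes with a count. For Ncr1 and Klre1 all these libraries were at or under 3 counts. Klrb1c (-1.17, adjusted p = 0.317) and Klrd1 (-1.60, 0.158) overlapped, with log2 fold changes short of the threshold by edgeR. Both calls were lost without stroked WT replicate 4 (0.0571 for Nkg7 and 0.129 for Eomes), with cohort as a covariate (0.0527 and 0.117) and among Imm2 samples alone (0.101 and 0.0756). Leaving out any 1 stroked NSG sample left 1 of the 2 calls.

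Stroked Rag2-/- and stroked WT mice were not told apart by edgeR. Of all genes, 0.00587% were called, and of the members 0, with 1 at an unadjusted p under 0.05 (7.02% of all genes) and 0 by DESeq2. The 95% intervals of the log2 fold change were -0.80 to 1.83 for Klrb1c, -1.92 to 0.86 for Klrd1, -2.40 to 0.56 for Klrk1 and -1.92 to 0.77 for Nkg7. Each of these allows a sizeable difference in at least 1 direction. The interval for Eomes was -5.83 to -0.75 (adjusted p = 0.707). For stroked NSG against stroked Rag2-/-, where 2.75% of all genes were called, no member was called by edgeR, 2 had an unadjusted p under 0.05 (24.5% of all genes), and DESeq2 called 0. Nkg7 had a pooled ratio of 0.115 (0.0128 to 0.489; edgeR adjusted p = 0.0770) and Gzmb of 0.102 (0.00233 to 0.737). No stroked NSG sample reached the lowest stroked Rag2-/- sample for 6 of the 10 genes, Ncr1 at or under 3 counts throughout among them, and the groups did not overlap for 17.2% of the genes with a count. The response to stroke itself was compared by an interaction term. Between Rag2-/- and WT mice 0% of genes and 0 members differed by edgeR (1 at an unadjusted p under 0.05, beside 4.19% of all genes, and 0 by DESeq2). Between NSG and WT mice 0.0117% of genes and 0 members differed by edgeR. For Nkg7 this term could decide nothing (SE 7267), since both non-stroked groups had 0 counts. Klrk1 had 0 counts in non-stroked NSG and Rag2-/-, and Klrd1 and Nkg7 had 0 in non-stroked WT. The interaction values of these genes rest on those zeros. Of the members, 2 had an unadjusted p under 0.05, beside 12.7% of all genes, and DESeq2 called 1, Eomes, whose difference in log2 response was -6.91 ± 1.74 (SE; edgeR adjusted p = 0.124).

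The 9 genes without Eomes were also summed in each sample, as a description with no test of the sum. The stroked WT samples were 0.909, 1.39, 1.09 and 1.56 CPM, with a pooled level of 1.23 CPM (1.05 to 1.44). WT-Tacr delayed samples ran from 1.31 to 4.51 CPM with a median of 1.85 and a pooled level of 2.21 CPM (1.96 to 2.49), and overlapped the stroked WT samples. Stroked Rag2-/- samples were 1.23, 0.776 and 1.20 CPM, within the range of or just below stroked WT, with a pooled level of 1.06 CPM (0.873 to 1.28). WT-Tacr acute samples were 0.243, 0.250 and 1.004 CPM, the first pair near the stroked NSG samples at 0.253, 0.272 and 0.184 CPM and the last within the stroked WT range. The pooled levels were 0.462 CPM (0.333 to 0.624) for WT-Tacr acute and 0.240 CPM (0.158 to 0.349) for stroked NSG, and their intervals, like those of stroked WT and stroked Rag2-/-, overlapped and cover counting error only. Such an overlap does not show equal levels.

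**Figure D2:**
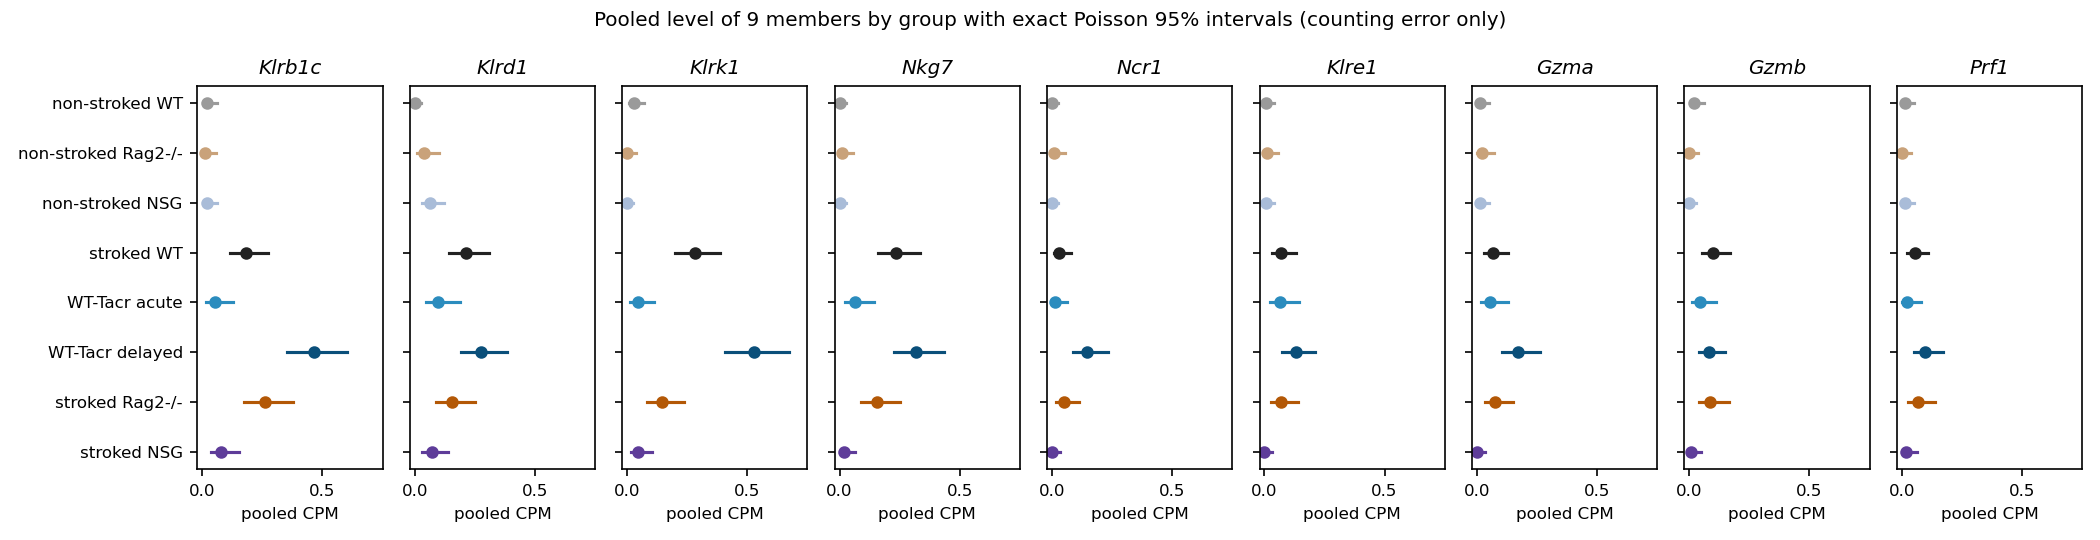
Pooled level (CPM, linear axis) of each of the 9 genes other than Eomes in the 8 groups, with exact Poisson 95% intervals for counting error. In the delayed tacrolimus group Klrk1 and Klrb1c reach 0.528 and 0.463 CPM, and every non-stroked group stays at or below 0.06375 CPM.

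**Figure D3:**
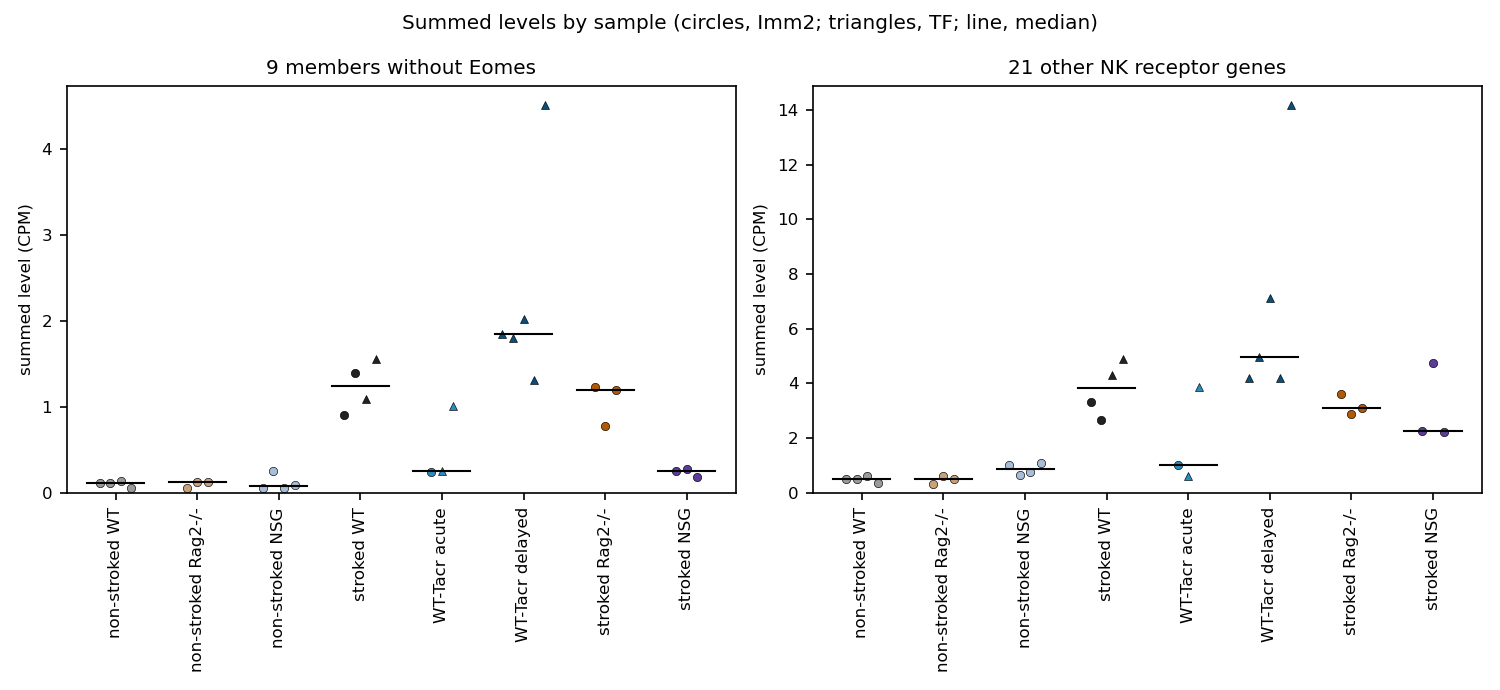
Summed level (CPM, linear axis from 0) of the 9 genes without Eomes (left) and of 21 other NK receptor genes (right) in every sample, with circles for Imm2, triangles for TF and a line at each group's median. The stroked NSG samples lie at 0.184 to 0.272 CPM on the left and at 2.20 to 4.74 CPM on the right, where they overlap the stroked WT samples at 2.67 to 4.89 CPM.

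Eomes behaved apart from the other 9 genes. Across the 29 samples, Pearson's r between log2 levels of Eomes and of the other 9 summed was 0.541 (Spearman's rho 0.45), given as a description over samples that share groups and cohorts. The 5 genes most like Eomes were Cdhr1 (r = 0.956), Frmd7 (0.937), Adamts19 (0.927), Scgn (0.924) and Sp8 (0.914). Cdhr1 is best known as a cadherin of photoreceptors and of olfactory bulb mitral and tufted cells, and Eomes is itself made by mitral and tufted cells and by intermediate progenitors of the cortex. Non-stroked NSG replicate 3 had 8.93 CPM of Eomes and 35.04 CPM of Cdhr1, with 2 counts over the other 9 genes, and stroked WT replicate 4 had 14.6 CPM of Eomes and 81.7 CPM of Cdhr1. The samples with Eomes above 4 CPM had 27.4 CPM of Cdhr1 or more, and all others had at most 8.31 CPM. Cdhr1 ranged over 3.16 to 5.11 CPM in non-stroked WT and 2.27 to 5.22 CPM in stroked Rag2-/-. In the groups where Eomes was called higher, it ranged over 6.87 to 81.7 CPM (stroked WT) and 6.47 to 49.2 CPM (WT-Tacr delayed). The part of other cells in the Eomes changes was not tested, and the summed intermediate progenitor markers were 6.72 to 8.99 CPM in non-stroked and 5.44 to 7.20 CPM in stroked WT samples. The 10 genes summed, in which Eomes prevails, were most like Cdhr1 (0.92), Frmd7 (0.916), Dnah11 (0.907), Vipr2 (0.905) and Scgn (0.903). The 9 genes without Eomes were most like H2-DMb1 (0.96), Inpp5d (0.948), Il2rg (0.945), Ifit3b (0.944) and Apoc2 (0.944).

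**Figure D4:**
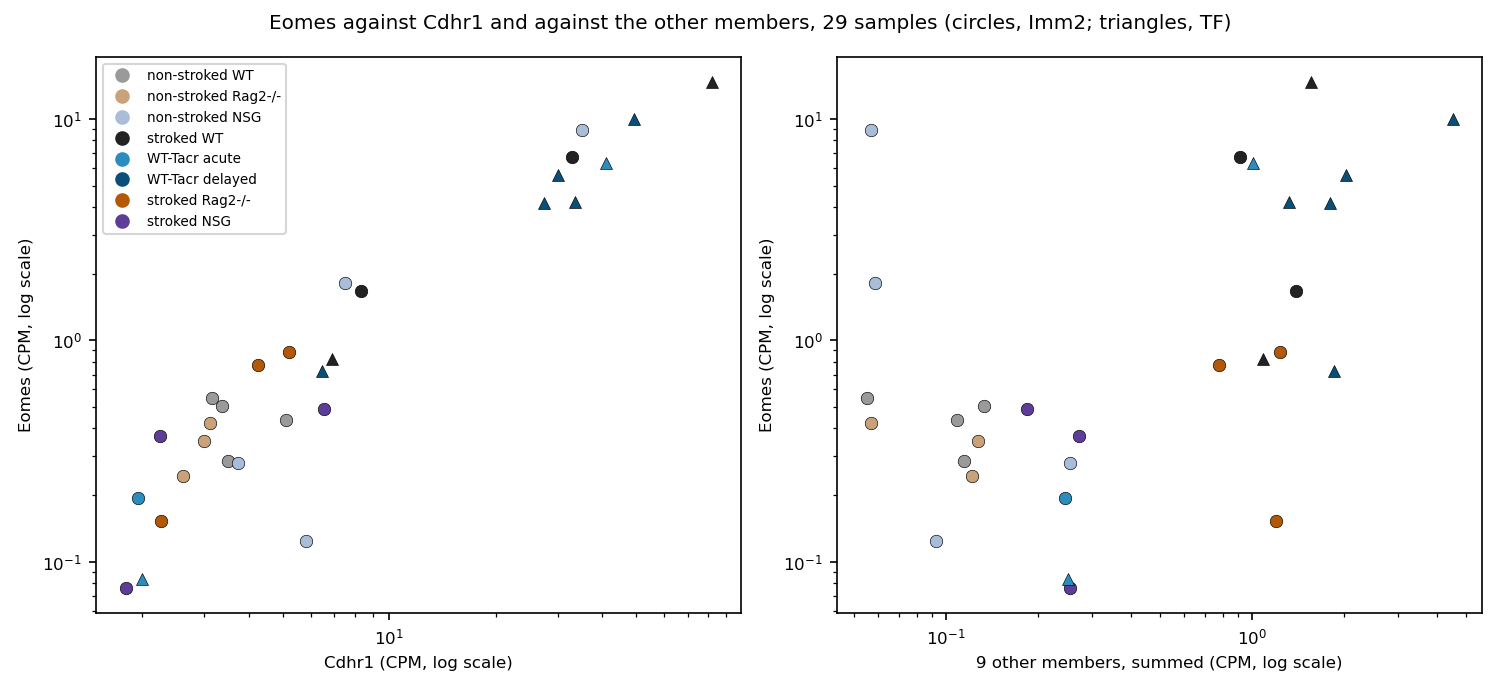
Eomes (CPM, log axis) against Cdhr1 (left) and against the sum of the other 9 genes (right; CPM, log axes) in the 29 samples, coloured by group, with circles for Imm2 and triangles for TF. Samples of several groups line up with Cdhr1 (r = 0.956), while on the right 1 non-stroked NSG sample has high Eomes at 0.0567 CPM of the other genes.

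The other genes of the NK programme were examined by 4 lists, first in stroked against non-stroked WT, where 7.3% of all genes tested were called. Of 21 other NK receptors 4 passed the filter, and 3 of these rose in stroked against non-stroked WT. Near-zero genes pass the filter mainly through groups in which they are high. The counts of called genes and the medians of all 4 lists, in every comparison, are therefore a description and support nothing about the lists. Tbx21 of the signalling list, for example, had 0 to 8 counts in non-stroked WT. The receptors below the filter were not tested. The 3 receptors that rose were Slamf7 (5.998 ± 0.93, SE), a receptor of the SLAM family, Klrb1b (4.42 ± 0.71), an inhibitory relative of Klrb1c, and Cd244a (3.71 ± 0.80). Slamf7 and Cd244a are also made by myeloid and T cells. Of 13 other effector genes 9 were tested and 4 rose (median log2 fold change 0.50 over the tested genes, next to -0.00045 over all genes), namely the chemokine gene Ccl5 (4.14 ± 0.65), the cathepsin gene Ctsw (2.08 ± 0.55), Stx11 (1.71 ± 0.45) of granule fusion and Srgn (1.17 ± 0.24) of the granule matrix. Of 16 signalling genes and transcription factors 15 were tested and 10 rose (median 1.84). The largest changes were in Tbx21 (4.94 ± 1.13), which encodes T-bet, Il18rap (4.52 ± 0.82), the adaptor gene Sh2d1b1 (3.28 ± 1.01), Ikzf3 (3.05 ± 0.73) and Il2rb (3.05 ± 0.56), the receptor chain that takes IL-15 signals. T-bet is also made by olfactory bulb mitral and tufted cells, and Tbx21 followed Eomes with an r of 0.808 over the 29 samples (Spearman's rho 0.555). Of 13 genes chosen for ligands and granzyme inhibitors 10 were found by symbol, 7 were tested and 3 rose (median 0.89). These were Ulbp1 (1.504 ± 0.49), a ligand of NKG2D, Serpinb6b (1.41 ± 0.39), an inhibitor of granzyme A, and Clec2d (1.21 ± 0.27), the ligand of Klrb1b. All edgeR adjusted p-values of the genes named here were between 7.94e-05 and 0.0254.

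The same lists in the other stroked groups differed in how many genes were called, as did the share of all genes called, at 15.5% for WT-Tacr delayed, 2.58% for WT-Tacr acute, 4.33% for Rag2-/- and 5.48% for NSG mice. Against non-stroked WT, the WT-Tacr delayed group had 4 other receptors, 5 effector genes, 10 signalling genes and 5 ligands or inhibitors called higher by edgeR. The WT-Tacr acute group had 2 receptors, 1 effector gene (Ccl5) and 4 signalling genes called. In Rag2-/- mice the numbers were 3 (Slamf7, Klrb1b and Cd244a), 2 (Ccl5 and Srgn), 2 (Tyrobp and Il2rg) and 1 (Clec2d). In NSG mice 2 receptors rose after stroke while no member was called, Klrb1b by 3.19 ± 0.59 and Slamf7 by 2.46 ± 0.83 on the log2 scale (SE), with 4 effector genes, 2 signalling genes and 2 ligands or inhibitors. Klrb1b counts were 8 to 34 in the stroked NSG libraries and 9 to 16 in the stroked WT ones. Between WT-Tacr delayed and acute, where 5.75% of all genes were called, the numbers were 2, 3, 3 and 2, all higher in delayed. Between stroked NSG and stroked WT, where 3.26% of all genes were called, the 4 tested receptors were short of the threshold by edgeR. Ccl5 was lower (-2.003 ± 0.59) and Gzmk higher (1.61 ± 0.35). Lower signalling genes were Tbx21 (-3.62 ± 1.11), Ikzf3 (-2.41 ± 0.76), Il2rb (-1.74 ± 0.55), Il2rg (-1.67 ± 0.36) and Il15 (-1.13 ± 0.35), with Il12rb2 higher (1.78 ± 0.47). In non-stroked NSG, Il12rb2 and Il15 were also called by edgeR against non-stroked WT (3.36% of all genes called) and against non-stroked Rag2-/- (2.8%). H2-T23, the gene of the class I molecule that Klrd1 heterodimers read, was lower by -2.45 ± 0.24 (SE; edgeR adjusted p = 4.2e-08). It was already low without stroke, at 1.29 to 1.79 CPM in non-stroked NSG and 10.03 to 12.6 CPM in non-stroked WT. NSG mice carry NOD alleles, and how reads of NOD alleles map to the reference was not tested for H2-T23 or for the lectin-like receptors.

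Some markers of other cell types differed between the same groups. Of all genes tested, 7.3% were called in stroked WT, 2.58% in WT-Tacr acute and 15.5% in WT-Tacr delayed, each against non-stroked WT. The share was 5.75% for delayed against acute, 3.26% for stroked NSG against stroked WT and 2.75% for stroked NSG against stroked Rag2-/-. Summed counts of the T cell receptor complex genes Cd3d, Cd3e and Cd3g were 1 to 4 per sample in non-stroked WT, 13 to 50 in stroked WT, 2 to 18 in WT-Tacr acute and 15 to 34 in WT-Tacr delayed. In stroked Rag2-/- samples they were 0 to 3, beside 3 to 13 counts of Klrb1c, and in stroked NSG samples 0 to 1. In the WT groups T cells and NK cells therefore cannot be told apart as the source of the shared genes, and the part of T cells was not tested. Of the 11 T cell markers 9 were tested, and 6 were called higher by edgeR in stroked WT and 8 in WT-Tacr delayed than in non-stroked WT, and 3 (Cd8a, Cd3g and Cd3e) lower in stroked NSG than in stroked WT. Over all 11 the sums were 4.30 to 10.9 CPM in non-stroked WT, 10.6 to 25.3 CPM in stroked WT, 3.28 to 18.9 CPM in stroked Rag2-/- and 3.56 to 27.9 CPM in stroked NSG. Cd4, which microglia and macrophages can also make, took 36.1% to 95.9% of that list's counts per sample. Microglia and macrophage markers summed to 183 to 215 CPM in non-stroked WT, 356 to 448 CPM in stroked WT, 231 to 412 CPM in WT-Tacr acute, 438 to 543 CPM in WT-Tacr delayed, 339 to 429 CPM in stroked Rag2-/- and 362 to 499 CPM in stroked NSG. Acute replicate 3, the sample with the highest member levels of its group, also had the highest of its 3 sums. Of these 7 markers 5 were called higher by edgeR in stroked WT, 2 in WT-Tacr acute and 6 in WT-Tacr delayed against non-stroked WT, and 2 in delayed against acute. Mast cell markers summed to 0.0272 to 0.137 CPM in non-stroked WT, 0.505 to 2.08 CPM in stroked WT, 0.0416 to 0.734 CPM in WT-Tacr acute, 0.643 to 7.89 CPM in WT-Tacr delayed, 0.490 to 1.33 CPM in stroked Rag2-/- and 0.0506 to 0.568 CPM in stroked NSG. The 4 mast cell markers, Cpa3, Cma1, Mcpt4 and Tpsb2, were called higher by edgeR in stroked WT and in WT-Tacr delayed than in non-stroked WT, and in delayed than in acute. Of the neutrophil markers, S100a8 and S100a9 were called higher by edgeR in stroked WT and in WT-Tacr delayed than in non-stroked WT, and the summed markers were 0.0569 to 0.797 CPM in non-stroked WT, 0.555 to 4.58 CPM in stroked WT, 0.416 to 3.75 CPM in WT-Tacr acute and 2.58 to 6.45 CPM in WT-Tacr delayed. Red blood cell markers summed to 2.78 to 7.64 CPM in stroked WT and 17.03 to 40.5 CPM in stroked NSG, with 3 of the 5 called higher and 1 called lower in stroked NSG by edgeR. Without stroke these markers already summed to 14.9 to 97.2 CPM in NSG, beside 3.89 to 24.7 CPM in WT. Choroid plexus markers summed to 2.29 to 11.6 CPM in WT-Tacr acute and 7.37 to 798 CPM in WT-Tacr delayed (median 761), and 2 of the 4, Kcnj13 and Folr1, were called higher in delayed than in acute by edgeR, beside 5.75% of all genes. Trdc, the constant gene of the delta T cell receptor chain, was the only 1 of 4 gamma delta T cell markers tested and was called lower in stroked NSG than in stroked WT, by -3.84 ± 0.72 (SE) on the log2 scale, and than in stroked Rag2-/-, by -3.25 ± 0.78, with 0 to 1 counts in the stroked NSG libraries and 1 to 18 in the stroked WT ones. Without stroke it was also called lower in NSG, by -3.37 against WT (3.36% of all genes called) and by -2.82 against Rag2-/- (2.8%). The 4 gamma delta markers summed to 3 to 15 counts in non-stroked Rag2-/- and 8 to 15 in non-stroked WT samples. Rag2-/- mice lack mature T cells, so Trdc was not read as a level of gamma delta T cells. Of the 4 B cell markers 2 were tested, and Cd79b was called higher in WT-Tacr delayed (0.446 to 0.786 CPM) than in non-stroked WT (0.0285 to 0.265 CPM) and WT-Tacr acute (0.0416 to 0.386 CPM). The 4 markers summed to 0.893 to 1.54 CPM in WT-Tacr delayed and 0.304 to 0.916 CPM in stroked WT. In strains without B cells they summed to 0.554 to 1.20 CPM (stroked Rag2-/-) and 0.275 to 0.886 CPM (stroked NSG). Their level was therefore not read as a level of B cells. The limit that the filter sets on counts of called genes applies to these marker lists as well. The part of these cells in the member results was not tested.

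Every sample carried the neuronal markers of cortex, with Snap25 at 1579 to 3211 CPM and Slc17a7, the vesicular glutamate transporter of cortical excitatory neurons, at 678 to 1637 CPM. Of 5 cortical cell markers, Gfap was called higher by edgeR in each stroked group than in its non-stroked controls, and in WT-Tacr delayed than in acute. Rbfox3 was called lower in WT-Tacr delayed than in non-stroked WT, beside 15.5% of all genes called. Over all samples the choroid plexus markers summed to 2.29 to 1437 CPM. The genes altered in the strains give a limited check of the labels. Rag2 had 0 counts in all samples but those of stroked WT (0 to 2 counts), so it checks nothing. Prkdc, whose NSG mutation leaves a transcript, was 16.7 to 43.9 CPM in every sample. Il2rg had 31 to 37 counts in stroked NSG (0.784 to 0.979 CPM) and 58 to 137 in stroked WT (2.11 to 3.46 CPM). Non-stroked samples of the 3 strains had 21 to 36 counts of Il2rg.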

How the data were processed

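RNA of mouse cortex was sequenced from stranded poly(A) libraries at a core facility, and the authors deposited raw counts per gene for each of 29 samples. The aligner, genome build and use of strand in counting are not given in the sources used here. Gene symbols were matched by Ensembl ID for 25635 of 25746 genes (111 had none). Groups came from the labels. In R 4.3.3, edgeR 4.0.16 was used with TMM normalisation and its filter on low counts (17031 of 22092 genes with a count were kept), 1 quasi-likelihood fit of 8 groups, and Benjamini-Hochberg adjustment over all genes tested. Calls needed an adjusted p under 0.05 and a change of more than 1 (log2) in either direction. SE is the log2 fold change divided by the square root of F. Levels are CPM on TMM-scaled library sizes, and intervals are exact Poisson or conditional binomial at 95%. Where all libraries of the lower group were at 0, the fold was computed against 3 counts per library. Correlations were taken on log2 CPM after adding a prior count of 2.

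The text names all 10 members, up to 5 called genes per pathway list by size of change, the 5 genes most alike over 29 samples, and the strain genes. Tbx21 beside Eomes, Klra8, Klra9, Klrb1a and the other genes called in groups beyond these were chosen after values were seen. The members and lists were chosen with earlier results of these data known. Raet1a, Raet1b and Raet1c were not found among the symbols used here.

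Alternatives were RLE scaling, no filter, a mean of at least 1 CPM, no fold minimum, cohort as a covariate, the groups compared alone, Imm2 samples alone, DESeq2 1.42.0, each sample left out in turn, a replicate block for the non-stroked groups and, added after seeing the data, TF samples alone and the sum without Eomes. The sum of a list of cortical cell markers is not reported here.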

Additional observations from a re-analysis of the deposited data

Results flagged for a closer look

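Of 24 groups of values tested for a sample far from the rest, 4 were met, all by WT-Tacr delayed replicate 5. A chance rate of about 1 in 20 cannot be assumed for counts as small as those of Prf1. The groups met are also not independent, since the summed level contains Klrb1c, Klrk1 and Prf1 of the same library. The number met therefore cannot be compared with chance. The library of WT-Tacr delayed replicate 5 had the lowest total count of the series, 17789044. It had 0.942 CPM of Klrb1c, where the next sample had 0.414 CPM, a gap of 0.788 of the group's range against a critical value of 0.71. It had 1.09 CPM of Klrk1 (next 0.504, gap 0.717) and 0.248 CPM of Prf1 (next 0.0905, gap 0.758). The 9 genes without Eomes summed to 4.51 CPM in it (next 2.03, gap 0.777). Without it, WT-Tacr delayed against non-stroked WT kept 5 called members.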

How the results depend on the processing

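Of 253 alternative values for the 18 member calls, none changed direction, 112 leave-one-out and 92 other values stayed past the threshold, and 30 and 19 fell short of it. The counts of called members moved as follows, with the share of all genes called in the same fit in parentheses. For stroked against non-stroked WT (5 in the report, 7.3%) the count was 3 with cohort as a covariate (4.18%), 3 in Imm2 alone (4.03%), 1 with only the groups compared (6.5%) and 1 at a mean of at least 1 CPM (5.9%), where Eomes was the only member tested, and 4 to 5 when samples were left out (5.56% to 8.25%). For WT-Tacr acute against non-stroked WT (1, 2.58%) it was 0 with cohort as a covariate (0.182%), 0 with only the groups compared (0.132%), 0 in Imm2 alone (0.2%), 0 at 1 CPM (2.51%), 0 by DESeq2 (3.32%) and 0 to 2 when samples were left out (0.133% to 5.28%), with 2 without acute replicate 1. For WT-Tacr delayed against non-stroked WT (5, 15.5%) it was 8 without the filter (13.6%), 8 by DESeq2 (15.1%), 4 with cohort as a covariate (4.24%), 3 with only the groups compared (14.1%) and 1 at 1 CPM (11.3%). For Rag2-/- (2, 4.33%) it was 3 with cohort as a covariate (4.93%), 0 with only the groups compared (5.42%), 0 at 1 CPM (4.35%) and 0 to 1 when samples were left out (2.2% to 4.39%). For stroked against non-stroked NSG (0, 5.48%) it was 1 in Imm2 alone (5.58%) and 1 by DESeq2 (5.49%). For non-stroked NSG against WT (0, 3.36%) it was 1 with cohort as a covariate (3.65%), 1 by DESeq2 (3.53%) and 0 to 1 when samples were left out (2.78% to 3.36%), with Klrd1 called without NSG replicate 1 or 3. For WT-Tacr acute against stroked WT (0, 0%) it was 0 to 2 when samples were left out (0% to 3.99%). For WT-Tacr delayed against acute (3, 5.75%) it was 2 with cohort as a covariate (2.48%), 3 without the filter (4.34%), with Ncr1 in place of Nkg7, 0 with only the groups compared (0%), 0 at 1 CPM (4.97%), 0 in TF alone (0%) and 0 to 4 when samples were left out (0% to 11.2%). For stroked NSG against stroked WT (2, 3.26%) it was 1 at 1 CPM (1.86%), 0 with cohort as a covariate (2.95%), 0 with only the groups compared (1.57%), 0 in Imm2 alone (2.26%) and 0 to 3 when samples were left out (2.64% to 3.77%), with 3 without stroked WT replicate 1. For the NSG against WT response (0, 0.0117%) it was 1 by DESeq2 (0.407%). Fits at 1 CPM or of only the groups compared test fewer of the members, and the cause of the other moves was not tested. RLE scaling and dropping the fold minimum moved none of these counts.

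With the replicate number as a block, 0 members were called in each of the 3 comparisons of non-stroked groups. Correlations of same-numbered samples ran from -0.232 to 0.117, so the numbers were not taken to pair the samples. Depth limits all statements on Ncr1, Klre1, Gzma, Gzmb and Prf1, whose levels sat near 3 counts per library.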

Other observations

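Klra8 and Klra9, lectin-like receptor genes outside the 10 members, had more counts in stroked NSG than in any other group. Klra8 had 8 to 23 counts per stroked NSG library (40 in all), 0 to 2 in stroked WT, 1 to 6 in WT-Tacr delayed and 1 to 2 in stroked Rag2-/-. Klra9 had 6 to 12 counts per stroked NSG library (24 in all) and at most 2 in any library of the other groups. Klrb1a had 3 to 8 counts in stroked NSG, 1 to 3 in stroked WT and 1 to 9 in WT-Tacr delayed. These genes did not pass the filter on low counts and were not tested. They belong to families with near-identical members that vary between mouse strains, and the mapping of NOD alleles was not tested. Gzmk, a granzyme gene, had 23 to 41 counts in non-stroked NSG and 25 to 42 in stroked NSG, against 8 to 15 in non-stroked and 6 to 15 in stroked WT.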
